A study of Mus musculus with 10 samples.

Results

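Angiotensinogen, neprilysin and the related peptidases of the cell surface were followed in OP9 stromal cells as 9 genes, *Agt*, *Agtr1a*, *Ace*, *Enpep*, *Anpep*, *Lnpep*, *Mme*, *Ece1* and *Dpp4*, of 26888 genes in the table. The genes were chosen by symbol with the RPM (reads scaled to the same total on genes in each library) of all 10 libraries in view, so their levels in the culture conditions and cell sources, and with and without IL-3, are given as a description, without p-values. All 9 had a row in the table.

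The study profiled OP9 cells by RNA-seq to characterise a stromal line that supports blood stem cell development in culture, and compared cells reaggregated at the liquid-gas interface with cells kept flat under medium. OP9 is a single line from (C57BL/6xC3H)F2-op/op mice, labelled as stroma of foetal calvaria. There were 6 reaggregates, cultured for 48 h on filters with 0.8-µm pores, of which reaggregates 2, 4 and 6 had received IL-3, at a dose labelled 200 µg/µl, and reaggregates 1, 3 and 5 had not. Of 4 flat cultures, 2 and 4 carried the label of the de Bruijn laboratory, and 1 and 3 carried no source. The study's methods name the Medvinsky and de Bruijn groups as earlier keepers of the flat cells, without saying which libraries came from which. The source of the reaggregated cells was not labelled either, so that culture and source cannot be told apart in full. By the study's methods, trypsin was used to disperse the cells to be reaggregated, and collagenase with dispase to dissociate the reaggregates for RNA extraction. Taking the commonest RPM above 0 as 1 read, the libraries held between 7.35 and 9.43 M reads on genes, and 3 reads, the smallest amount treated as detectable, came to between 0.318 and 0.408 RPM, a floor for counting error only.

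Angiotensinogen, the product of *Agt*, is the secreted precursor of all angiotensins. Renin and then angiotensin-converting enzyme (*Ace*) cut it to angiotensin II, which acts on the type 1 receptor (*Agtr1a* and *Agtr1b* in mice), while aminopeptidases at the cell surface trim the peptide further. Aminopeptidase A (*Enpep*) removes its first, acidic residue to give angiotensin III, aminopeptidase N (*Anpep*, CD13) makes the next cut, and the insulin-regulated aminopeptidase (*Lnpep*) binds the product, angiotensin IV. Neprilysin (*Mme*, CD10) and endothelin-converting enzyme (*Ece1*) are metallopeptidases of the M13 family, and dipeptidyl peptidase 4 (*Dpp4*, CD26) removes dipeptides from chemokines and incretins. CD10, CD13 and CD26 are familiar surface markers of stromal cells and of blood cells at particular stages.

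Across all genes, the libraries fell into groups. Reaggregates 1 and 2, 3 and 4, and 5 and 6 lay close together, with a root mean square difference in log2(RPM + 0.5) of 0.28 to 0.29, where the 12 other pairs of reaggregates had 0.53 to 0.76. The flat cultures labelled de Bruijn differed from each other by 0.50 and from the other flat cultures by 1.01 to 1.16, and the 2 flat cultures with no source named differed from each other by 0.73. Nothing in the labels states that libraries came from separate cultures, so that the p-values below measure only the spread between these libraries. Because the flat sources lay apart, the 9 genes are given against both kinds of flat culture, and related genes against all flat cultures, with the calls that depend on the source.

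*Agt* (ENSMUSG00000031980, chromosome 8, 127080434 to 127093606, minus strand, NCBIM37) was abundant in reaggregates, where its lowest, median and highest values were 474, 551.5 and 679 RPM. The flat cultures 1 and 3 held 71.8 and 149 RPM, and the de Bruijn flat cultures 2 and 4 held 1.19 and 0.121 RPM, which correspond to about 10 reads and 1 read. Every reaggregate thus lay above every flat culture, and both de Bruijn libraries lay far under both other flat cultures. In bulk RNA, fewer cells that express a gene and less RNA per cell cannot be told apart. The mean in reaggregates was 570 ± 91.8 RPM (SD, n = 6), 5.16 times the mean of 110.4 ± 54.6 RPM (SD, n = 2) in the flat cultures with no source named. Against the de Bruijn flat cultures, at 0.656 ± 0.756 RPM (SD, n = 2), the ratio was 869, with an interval from 486 to 1741 (exact Poisson, 95%) for counting error in the 11 reads of those libraries. On the log2(RPM + 0.5) scale, which understates differences of low values, reaggregates were higher by 5.77 against all flat cultures, by 2.44 against those with no source named and by 9.11 against those of the de Bruijn laboratory.

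The receptor gene *Agtr1a* (ENSMUSG00000049115, chromosome 13, 30428310 to 30474736, plus strand) was near the limit of detection everywhere. In reaggregates 1 to 6 it stood at 0.385, 0.136, 0.109, 0.256, 0 and 0 RPM, and in flat cultures 1 to 4 at 0.345, 0.239, 0.359 and 0.364 RPM. The ranges overlapped, and reaggregate 1 and flat cultures 1, 3 and 4 held about 3 reads each and the other libraries fewer, so no ratio was formed. *Ace* (ENSMUSG00000020681, chromosome 11, 105829259 to 105851278, plus strand), the gene of the converting enzyme, was listed at 0 in all 10 libraries.

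*Enpep* (ENSMUSG00000028024, chromosome 3, 128972093 to 129035638, minus strand) followed *Agt* closely. Its lowest, median and highest values in reaggregates were 306, 362.5 and 492 RPM, against 35.8 and 75.3 RPM in flat cultures 1 and 3 and 0.954 and 0.486 RPM in the de Bruijn flat cultures 2 and 4. The groups did not overlap, and the order of the flat cultures, 4, 2, 1 and 3 from low to high, was that of *Agt*. The mean of 389 ± 81.9 RPM (SD, n = 6) in reaggregates was 7.01 times the mean of 55.5 ± 27.9 RPM (SD, n = 2) in the flat cultures with no source named. The ratio to the de Bruijn flat cultures, at 0.720 ± 0.331 RPM (SD, n = 2), was 541, with a counting interval from 309 to 1046 (exact Poisson, 95%) from 12 reads. The log2 differences were 5.59 against all flat cultures, 2.87 against those with no source named and 8.32 against those labelled de Bruijn.

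*Anpep* (ENSMUSG00000039062, chromosome 7, 86966689 to 86993096, minus strand) was also higher in every reaggregate than in any flat culture, but its order of the flat sources was the opposite. It ranged from 35.3 through a median of 47.1 to 59.3 RPM in reaggregates, and stood at 2.76 and 7.42 RPM in flat cultures 1 and 3 and at 23.5 and 12.4 RPM in flat cultures 2 and 4. The de Bruijn flat cultures thus lay between the other flat cultures and the reaggregates, the reverse of their place for *Agt* and *Enpep*. Its mean in reaggregates was 46.4 ± 8.67 RPM (SD, n = 6), against 5.09 ± 3.30 RPM (SD, n = 2) in flat cultures with no source named and 17.9 ± 7.85 RPM (SD, n = 2) in those of the de Bruijn laboratory. The log2 difference was 3.18 against the former and 1.39 against the latter.

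*Lnpep* (ENSMUSG00000023845, chromosome 17, 17664687 to 17761453, minus strand), the remaining aminopeptidase, showed no such gap. Its values ran from 69.4 to 99 RPM in reaggregates, with a median of 92.1 RPM, and were 91.5, 93.6, 89.2 and 79.7 RPM in flat cultures 1 to 4. All flat cultures lay within the range of the reaggregates, and the log2 difference of −0.03, or −0.06 against those with no source named and 0.00 against the de Bruijn ones, was smaller than the SD of 0.22 among reaggregates on that scale.

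*Mme* (ENSMUSG00000027820, chromosome 3, 63099794 to 63186153, plus strand), the gene of neprilysin, reached 842 RPM in the lowest reaggregate, a median of 1075 RPM and 1350 RPM in the highest. In flat cultures 1 and 3 it was at 155 and 298 RPM, and in the de Bruijn flat cultures 2 and 4 at 29.8 and 17.0 RPM. The groups did not overlap, and the flat cultures were ordered as for *Agt* and *Enpep*, although *Mme* remained well above the floor in the de Bruijn libraries. The mean of 1076 ± 207 RPM (SD, n = 6) in reaggregates was 4.75 times that of the flat cultures with no source named, 226.5 ± 101 RPM (SD, n = 2), and 46.0 times that of the de Bruijn flat cultures, 23.4 ± 9.05 RPM (SD, n = 2). These correspond to log2 differences of 2.30 and 5.52.

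*Ece1* (ENSMUSG00000057530, chromosome 4, 137418152 to 137521144, plus strand), the other M13 peptidase among the 9 genes, was at 94.5 to 172 RPM in reaggregates, with a median of 132.5 RPM, and at 119, 146, 190 and 103 RPM in flat cultures 1 to 4. The ranges overlapped, and the log2 difference of −0.07, or −0.22 against those with no source named and 0.08 against the de Bruijn ones, lay within the SD of 0.37 among reaggregates. *Dpp4* (ENSMUSG00000035000, chromosome 2, 62168130 to 62250288, minus strand) was listed at 0 in 9 libraries and at 0.000143 RPM, far less than 1 read, in reaggregate 1.

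**Figure D1:**
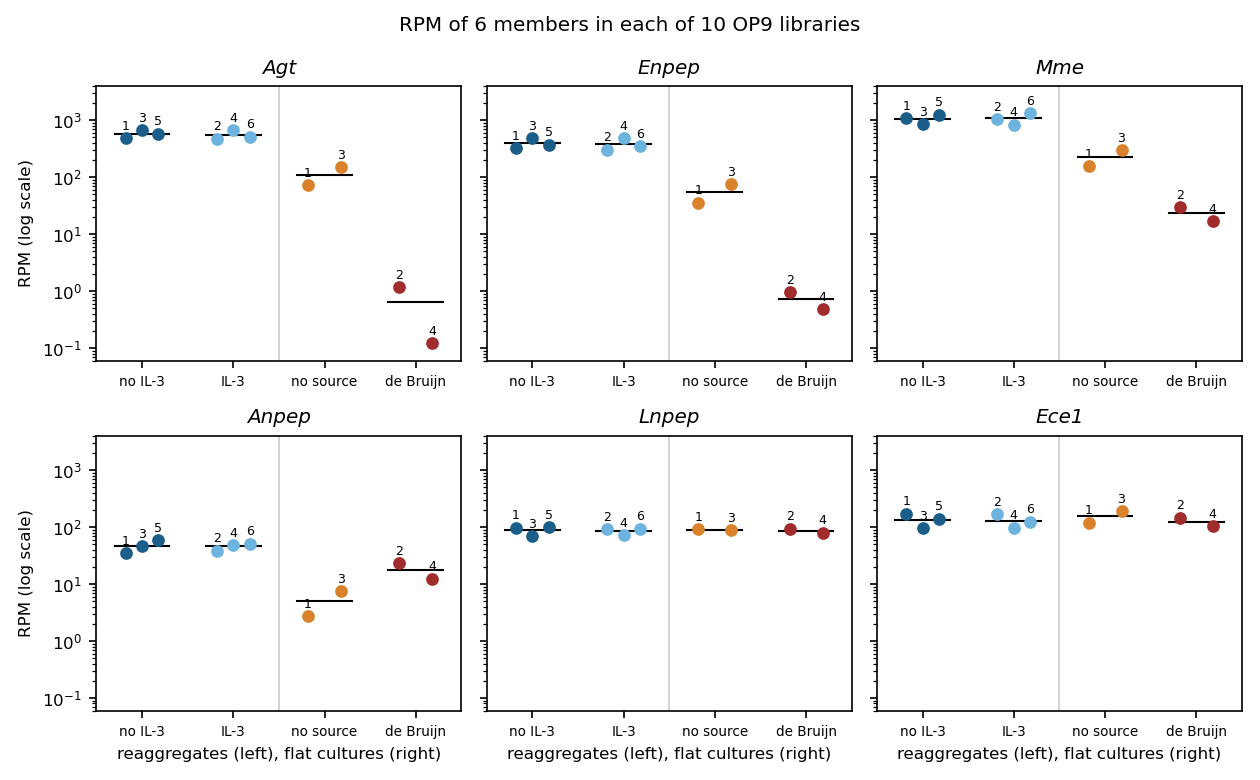
RPM on a log axis for the 6 genes with values above 0.5 RPM, in reaggregates without and with IL-3 and in flat cultures with no source named and labelled de Bruijn. Points are single libraries with their label numbers and lines are group means. The de Bruijn flat cultures are the lowest points for *Agt*, *Enpep* and *Mme*, at 1.19 RPM or less for the first of these, and lie above the other flat cultures for *Anpep*.

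In all, values of every reaggregate exceeded those of every flat culture for 4 of the 9 genes, *Agt*, *Enpep*, *Anpep* and *Mme*, as they did for 7.80% of the 16933 tested genes, those with over 0.5 RPM in 1 library or more. None of the 9 lay below all flat cultures, as 11.4% of those genes did. The 3-step order with both de Bruijn flat cultures lowest, both other flat cultures next and all reaggregates highest was noticed after the values were seen, and it was shared by *Agt*, *Enpep* and *Mme* and by 3.24% of the 16933 genes. Since the genes had been chosen with these values in view, the counts are a description. Within the flat cultures with no source named, library 3 held more than library 1 of each of these genes, by a ratio of 2.08 for *Agt*, 2.10 for *Enpep*, 1.92 for *Mme* and 2.69 for *Anpep*. *Lnpep* did not share this step, with a ratio of 0.975, and *Ece1* was at 1.60.

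Of the 9 genes, 6 were above 0.5 RPM in at least 1 library and entered the fits, and *Agtr1a*, *Ace* and *Dpp4* did not. Between the sources of flat cells, the de Bruijn libraries differed from those with no source named by −6.67 on the log2 scale for *Agt*, −5.45 for *Enpep* and −3.23 for *Mme*, and by 1.79 for *Anpep*. For *Lnpep* and *Ece1* the difference was −0.06 and −0.29, and the ranges of the sources overlapped. No p-value is given for these differences between sources, since the 9 genes were chosen with them in view.

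**Figure D2:**
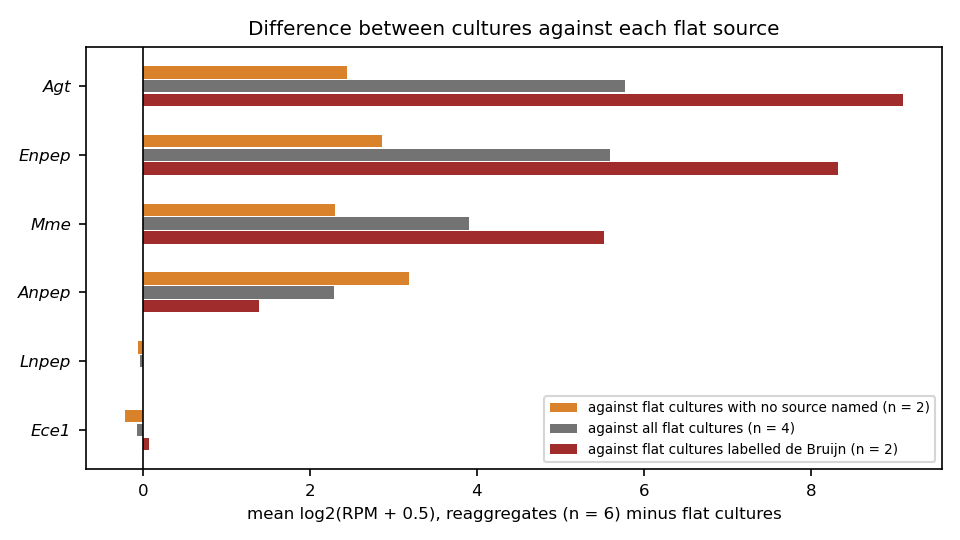
Difference in mean log2(RPM + 0.5) between 6 reaggregates and the flat cultures, for all 4 flat cultures and for each kind of flat culture alone (n = 2 each). *Agt*, *Enpep* and *Mme* differ most from the de Bruijn flat cultures, by 9.11, 8.32 and 5.52, whereas *Anpep* differs most from those with no source named, by 3.18.

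Levels of different genes were compared as RPM per kb of exon, with all annotated exons of a gene merged. In reaggregates *Agt* was highest, at 301 ± 48.6 RPM per kb (SD, n = 6), and *Mme* followed at 246 ± 47.2 RPM per kb, with ranges that overlapped. *Enpep*, at 82.7 ± 17.4 RPM per kb, was separate from both neighbours in this order, being under *Mme* and above *Ece1* in all reaggregates. *Ece1*, *Lnpep* and *Anpep* came next, at 25.1 ± 6.25, 16.8 ± 2.51 and 11.9 ± 2.23 RPM per kb, each overlapping with the next. By mean RPM per kb, *Agt* ranked 195th, *Mme* 241st and *Enpep* 836th of 25693 genes with an exon length in reaggregates, 1448th, 1622nd and 5667th in the flat cultures with no source named, and 14126th, 7923rd and 15219th in the de Bruijn ones.
In the flat cultures with no source named *Agt* and *Mme* again led, at 58.4 ± 28.9 and 51.7 ± 23.1 RPM per kb (SD, n = 2), and *Ece1* and *Lnpep* stood above *Enpep*, at 29.2 ± 9.47, 17.4 ± 0.314 and 11.8 ± 5.94 RPM per kb. The ranges of *Agt* and *Mme*, and of *Mme* and *Ece1*, overlapped there, whereas *Anpep* was apart at the lower end, at 1.31 ± 0.849 RPM per kb. In the de Bruijn flat cultures *Ece1* and *Lnpep* were the highest of the 9, at 23.5 ± 5.74 and 16.7 ± 1.90 RPM per kb, without overlap. *Mme*, at 5.34 ± 2.07, and *Anpep*, at 4.63 ± 2.02 RPM per kb, overlapped below them, and *Agt* and *Enpep* were near the floor.

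Among reaggregates, levels varied mainly between the consecutive pairs. *Agt* and *Enpep* were highest in reaggregates 3 and 4 and lowest in 1 and 2, with pair means that spanned 0.50 and 0.64 on the log2 scale. *Mme* was highest in reaggregates 5 and 6 and lowest in 3 and 4, spanning 0.62, and *Anpep* was highest in 5 and 6 and lowest in 1 and 2, spanning 0.57. *Ece1* had the widest span of the 6 genes, 0.81, with its highest values in reaggregates 1 and 2 and its lowest in 3 and 4, and *Lnpep* spanned 0.44. Within a pair, whose libraries differ in IL-3, the largest difference for any of the 6 genes was 0.22, for *Anpep* in reaggregates 5 and 6.

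IL-3, a cytokine used to support blood cells in such cultures, was compared within the reaggregates. For the 6 genes the differences between 3 reaggregates with and 3 without it were small. *Agt* had a mean of 557 ± 108 RPM with IL-3 and 583 ± 94.5 RPM without it (SD, n = 3 each), a log2 difference of −0.07 (SE 0.19). For *Mme*, at 1084 ± 255 and 1068 ± 204 RPM, the difference was 0.01 (SE 0.23), and *Enpep*, at 383 ± 97.0 and 395 ± 85.0 RPM, gave −0.05 (SE 0.23). Those of *Anpep*, *Ece1* and *Lnpep* were −0.02, −0.05 and −0.04. The SE of the 6 genes, 0.18 to 0.28, includes the spread between consecutive pairs. With consecutive reaggregates treated as a block the differences are the same and the SE was 0.046 to 0.082. Across all 16933 genes limma called 0 with higher and 0 with lower values under IL-3 (0% each), at a fold of at least 2 and an adjusted p of at most 0.05. At an unadjusted p under 0.05 there were 68 genes, and 564 with the block.

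The genes whose profile over the 10 libraries was most like that of *Agt*, by the root mean square difference of mean-centred log2(RPM + 0.5) among 12717 tested genes that reached 5 RPM, were *Enpep* at 0.44, *Igfbp5* at 0.73 and *Megf10* at 0.83. *Igfbp5*, which encodes a binding protein for insulin-like growth factors, was at 183 to 329 RPM in reaggregates and at 12.5, 0.239, 19.2 and 0 RPM in flat cultures 1 to 4. *Megf10*, which encodes a receptor for engulfment, was at 56.3 to 107 RPM in reaggregates, at 16.0 and 26.3 RPM in flat cultures 1 and 3, and at or near 0 in the others. Like *Agt*, both were lowest in the de Bruijn flat cultures and, among reaggregates, lowest in 1 and 2. *Mme* was 29th in likeness to *Agt*.
For *Mme* the nearest was *Prss12* at 0.24, and *Abca1*, ranked 3, was at 0.39. *Prss12*, the gene of the serine protease neurotrypsin, ran from 15.8 to 28.1 RPM in reaggregates, was at 2.99 and 7.07 RPM in flat cultures 1 and 3 and was listed at 0 in the de Bruijn ones. *Abca1*, which encodes a cholesterol transporter, was at 188 to 390 RPM, 48.0 and 88.9 RPM, and 4.89 and 1.82 RPM in the same groups. Like *Mme*, both had flat culture 3 above flat culture 1 and the de Bruijn libraries lowest.

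Promoter windows of 300 bases, from 250 bases before a transcription start to 50 after it, were taken from RefSeq (GRCm38.p6, a later build than that of the expression table) for 8 of the 9 genes. They are shown for *Agt* and *Enpep*, the gene whose profile was nearest to that of *Agt*, and for the first and second of 3 starts of *Mme*, all on the strand of the gene. The windows were searched on both strands for 5 motifs, the TATA box spelled TATAAA, the CCAAT box, the GC box spelled GGGCGG, the AP-1 motif spelled TGANTCA and the STAT motif spelled TTCNNNGAA, and capitals mark every match. No matches overlapped in the windows shown.
Agt chr8:124569657-124569956: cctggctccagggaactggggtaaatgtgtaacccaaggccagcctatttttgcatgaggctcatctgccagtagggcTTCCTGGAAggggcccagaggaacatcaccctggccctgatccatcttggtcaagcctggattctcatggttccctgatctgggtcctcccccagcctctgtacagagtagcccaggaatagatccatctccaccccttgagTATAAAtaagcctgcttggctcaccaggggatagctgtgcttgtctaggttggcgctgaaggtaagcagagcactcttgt
Enpep chr3:129332700-129332999: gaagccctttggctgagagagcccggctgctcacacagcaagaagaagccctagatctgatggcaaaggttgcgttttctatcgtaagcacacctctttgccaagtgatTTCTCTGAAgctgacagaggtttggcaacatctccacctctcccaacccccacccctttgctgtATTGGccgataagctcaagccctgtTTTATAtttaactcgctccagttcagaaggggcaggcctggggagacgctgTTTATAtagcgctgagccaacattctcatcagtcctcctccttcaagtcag
Mme chr3:63294961-63295260: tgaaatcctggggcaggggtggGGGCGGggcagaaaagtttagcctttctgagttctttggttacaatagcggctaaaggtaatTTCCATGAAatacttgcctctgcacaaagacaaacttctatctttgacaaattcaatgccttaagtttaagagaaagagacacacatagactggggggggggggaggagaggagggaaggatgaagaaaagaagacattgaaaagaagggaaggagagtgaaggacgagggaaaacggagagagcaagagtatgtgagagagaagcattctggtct
Mme chr3:63295622-63295921: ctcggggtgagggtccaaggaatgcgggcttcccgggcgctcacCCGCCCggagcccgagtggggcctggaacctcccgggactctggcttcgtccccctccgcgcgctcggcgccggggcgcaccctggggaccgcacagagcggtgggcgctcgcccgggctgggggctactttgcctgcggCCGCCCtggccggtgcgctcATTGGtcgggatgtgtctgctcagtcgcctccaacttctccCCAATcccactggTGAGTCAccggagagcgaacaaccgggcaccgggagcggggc
The windows of *Agt* and *Enpep* each held the TATA box, found in 13.6% of the 32851 windows of all genes, and the STAT motif, found in 8.30%. The TATA box was not particular to them, being also in windows of *Ace* and *Dpp4*, which were listed at or near 0. In *Agt* the first base of the TATA box lay at −30, with the start counted as 0, and in *Enpep* 2 copies on the opposite strand began at −52 and −1. The STAT motif was also in the first *Mme* window, beside the GC box, which 35.7% of all windows held. The second *Mme* window held 2 CCAAT boxes, 2 GC boxes on the opposite strand and the AP-1 motif, which 37.4%, 35.7% and 7.81% of all windows held, and *Enpep* held 1 CCAAT box on the opposite strand. The third *Mme* window overlaps the second. These matches describe the letters of the windows.

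Other genes of angiotensin metabolism and of related peptide systems were taken from 8 lists of 87 symbols, of which 79 were in the table and 49 were tested. The lists leave out the 9 genes and, like them, were chosen with earlier results of these data known, so their shares are a description. Between cultures, 12 of the 49 rose and 2 fell in reaggregates (limma, fold of at least 2, Benjamini-Hochberg adjusted p of at most 0.05), or 24.5% and 4.08%, where 7.32% and 6.53% of all 16933 genes did. Of the 12, *Fap*, *Cpz* and *Xpnpep2* were over 0.5 RPM only in reaggregates, so they could enter the test only as higher. With no filter on low values 10 of 75 rose, these 3 among them, and 2 fell, or 13.3% and 2.67%, where 3.71% and 3.79% of all genes did. With no filter the median log2 difference was 0.092 for these 75 genes and 0.00082 for all genes. With the filter it was 0.41 for the 49 related genes and 0.04 for all 16933. With consecutive reaggregates averaged to 3 samples, 4 rose and 2 fell, and against the flat cultures with no source named alone 6 rose and 4 fell. For all genes these settings gave 321 and 627 higher and 429 and 1044 lower, and without flat culture 3 the number higher was 2121 rather than 1239, with 17 of the related genes among them.

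The core of the renin-angiotensin system was at low levels apart from *Agt*, *Atp6ap2* and *Agtrap*. Its list leaves out *Agt*, *Ace* and *Agtr1a*, described above, and none of the 5 tested genes on it passed against all flat cultures. *Ren1*, the renin gene, was listed at 0 except for 0.12 RPM, about 1 read, in flat culture 3. *Agtr1b* was at 0.596 and 1.82 RPM in the de Bruijn flat cultures 2 and 4 and listed at 0 in the other 8 libraries. Being over 0.5 RPM only in the de Bruijn flat cultures, it could enter the test only as lower in reaggregates. It passed as lower against the de Bruijn flat cultures alone and without flat culture 3. The log2 differences there were −1.67 and −1.12 (limma adjusted p = 0.000678 and 0.0343). *Agtr2*, the type 2 receptor gene, was at 1.44 RPM in flat culture 3, at 0.136 RPM in reaggregate 2 and at 0 elsewhere. *Mas1*, the receptor gene for angiotensin 1-7, was at 0.759 to 2.05 RPM in reaggregates, at 1.15 and 1.08 RPM in flat cultures 1 and 3 and at 0 in flat cultures 2 and 4. The difference of *Mas1* between cultures was 1.05 on the log2 scale (limma, Benjamini-Hochberg adjusted p = 0.0627), and it fell by 1.69 between flat sources, toward the de Bruijn cultures (adjusted p = 0.0210). Between cultures *Mas1* passed under 6 settings, among them that of the de Bruijn flat cultures alone, with 1.89, but against those with no source named alone the log2 difference was 0.20 without a call, so that its difference rests on the zeros of the de Bruijn libraries. *Atp6ap2*, which encodes the prorenin receptor, a subunit of the vacuolar proton pump, was abundant at 139 to 167 RPM in reaggregates and 97.6 to 133 RPM in flat cultures, and its log2 difference of 0.41 was under the fold threshold. *Agtrap*, whose product binds the type 1 receptor, was at 25.1 to 52.4 RPM in reaggregates and 24.7 to 50.5 RPM in flat cultures.

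The lists named for the M1, M13 and DPP4 families leave out *Enpep*, *Anpep*, *Lnpep*, *Mme*, *Ece1* and *Dpp4*, described above. They do not sort genes by place in the cell, so their counts do not describe surface peptidases as a class. On these lists 0 of 6 tested M1 aminopeptidases and 0 of 2 tested M13 peptidases passed between cultures. *Phex*, *Erap1* and *Npepps*, named after their values were seen, missed only the fold threshold, with log2 differences of 0.98, 0.70 and 0.51 (limma, Benjamini-Hochberg adjusted p = 0.0466, 0.0150 and 0.0363). In the DPP4 family 2 of 5 rose, *Fap* and the lysosomal *Dpp7*, which reached 80.1 ± 11.9 RPM (SD, n = 6) upon reaggregation from 29.5 ± 2.21 RPM (SD, n = 4), a log2 difference of 1.41 (SE 0.14, limma, Benjamini-Hochberg adjusted p = 0.000131). Among other peptidases that can act on angiotensins 1 of 6 rose, *Ctsa*, the gene of cathepsin A, at 506 ± 36.1 RPM against 235 ± 82.6 RPM (log2 difference 1.16, SE 0.19, limma adjusted p = 0.00167). In *Dpp7* and *Ctsa* every reaggregate exceeded every flat culture. *Thop1* and *Prep*, of the same list as *Ctsa* and also named after their values were seen, missed only the fold threshold in the other direction. Their log2 differences were −0.64 and −0.61 (limma, Benjamini-Hochberg adjusted p = 0.00348 and 0.0128). Every reaggregate lay below every flat culture, at 27.7 to 33.2 against 44.3 to 51.7 RPM for *Thop1* and 69.6 to 94.1 against 109 to 161 RPM for *Prep*.
The list of carboxypeptidases and dipeptidases, which also holds other peptidases such as *Mep1a* and *Xpnpep2*, had 6 of 12 tested genes called higher and 0 lower. With no filter on low values 4 of the 6 passed, and *Cpd* and *Cpxm1* did not (limma adjusted p = 0.112 and 0.0705). The log2 difference of *Cpxm1* against all flat cultures was 1.03. *Cpe*, which trims peptide hormone precursors, was at 1222 ± 134 RPM in reaggregates (SD, n = 6) against 572 ± 165 RPM (SD, n = 4), a log2 difference of 1.13 (SE 0.19, limma, Benjamini-Hochberg adjusted p = 0.00225), and its groups did not overlap. *Cpd*, a carboxypeptidase of the secretory pathway, was at 254 ± 64.4 and 138 ± 88.3 RPM with groups that overlapped, and its log2 difference of 1.09 only just passed (limma adjusted p = 0.0496) and was lost when any single reaggregate or flat culture 1, 2 or 4 was left out, with a pseudocount of 0.1, with no filter and with the replicate block. The log2 difference stayed at 0.99 to 1.22 in these settings except without flat culture 4, at 0.67, and with the block, at 0.88. The others, *Cpxm1*, *Cpz*, *Mep1a* and *Xpnpep2*, were at most 3.46 RPM in any library.

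Of 7 tested genes for peptide ligands 2 fell and 0 rose, and their median log2 difference was −0.10. *Adm*, the adrenomedullin gene, was at 8.31 to 13.6 RPM in reaggregates and at 36.5, 102, 29.8 and 120 RPM in flat cultures 1 to 4, and fell by 2.54 on the log2 scale (SE 0.37, limma, Benjamini-Hochberg adjusted p = 0.000868). *Edn1*, which encodes the precursor of endothelin 1, was at 0 to 0.651 RPM in reaggregates and at 1.96, 9.54, 2.51 and 11.1 RPM in flat cultures 1 to 4, and fell by 2.90 (SE 0.45, limma adjusted p = 0.00123). All flat cultures lay above all reaggregates for both, and the de Bruijn flat cultures were the highest.
Among receptors 3 of 6 rose, *Ednra*, *Npr1* and *Npr3*. *Ednra*, the endothelin A receptor gene, was at 78.1 to 106 RPM in reaggregates and at 34.9, 12.3, 69.7 and 4.71 RPM in flat cultures 1 to 4 (log2 difference 2.24, SE 0.56, limma, Benjamini-Hochberg adjusted p = 0.0127), without overlap. *Npr3*, the clearance receptor gene for natriuretic peptides, was at 28.2 to 95.6 RPM and at 2.65, 8.95, 37.6 and 5.71 RPM (log2 difference 2.81, SE 0.62, limma adjusted p = 0.00742), and flat culture 3 lay within the range of the reaggregates. Averaging consecutive reaggregates ended the calls of *Ednra*, *Npr3*, *Cpe* and *Cpd*, while their log2 differences stayed at 2.24, 2.81, 1.13 and 1.09. Using only reaggregates with IL-3 or only those without it also ended these 4 calls, and that of *Ctsa* ended with only those with IL-3, at 1.13 (adjusted p = 0.0578). Against the flat cultures with no source named alone, *Npr3* stayed at 2.55 without a call, and *Ednra* and *Cpd* fell to 0.93 and 0.33. Against the de Bruijn ones alone, *Cpe* and *Ctsa* fell under the fold threshold, with log2 differences of 0.87 and 0.98, and *Cpe* did so without flat culture 1, with 0.98.

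**Figure D3:**
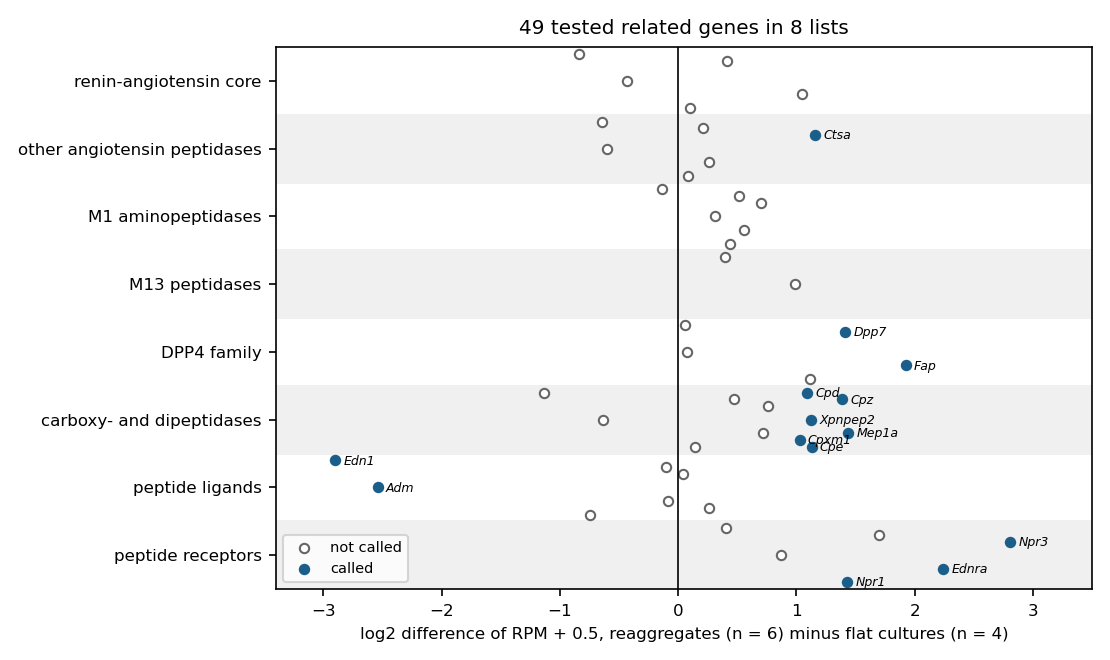
Log2 difference of RPM + 0.5 between 6 reaggregates and 4 flat cultures for 49 related genes, grouped by list. Filled points passed a fold of at least 2 and a limma adjusted p of at most 0.05, 12 of them higher and 2, *Edn1* and *Adm*, lower in reaggregates.

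Between the flat sources, 3 of the 49 related genes were called higher and 4 lower in the de Bruijn cultures, or 6.12% and 8.16%, where limma called 1.82% and 3.87% of all genes higher and lower. These 7 genes are named because they were called, after their values were seen. *Adm*, *Edn1* and *Dpep1*, a membrane dipeptidase gene at 39.6 and 53.3 RPM in flat cultures 2 and 4 against 0.345 and 2.99 RPM in 1 and 3, were higher there. *Mas1*, *Naalad2*, *Calcrl* and *Vipr2* were lower, of which *Calcrl*, the receptor gene for adrenomedullin, was at 7.28 and 11.3 RPM against 69.5 and 75.3 RPM. With no filter on low values only *Mas1* of the 7 passed. The related genes called higher and lower were then 0% and 1.49%, where 0.395% and 0.666% of all genes were called. Quantile normalization moved the median difference of all genes between sources from −0.17 to 0.05 and the calls from 309 higher and 656 lower to 646 and 799, and median-ratio scaling moved that median to −0.02. With any 1 of the 4 flat cultures left out there were 0 calls. IL-3 gave 0 calls among the 49 genes in either direction.

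Markers of other cell types differed between the same libraries. Of 9 stromal markers in the table, 8 were above 0.5 RPM in every library, *Col1a2* was the most abundant, and their sum was 16377 to 22560 RPM in reaggregates and 8157, 4425, 13854 and 2471 RPM in flat cultures 1 to 4. That sum had the order of flat cultures seen for *Agt*, *Enpep* and *Mme*, as did *Col1a1*, *Col1a2* and *Col3a1*, which made up most of it. Other stromal markers had other orders, with *Pdgfrb* at 122, 376, 266 and 190 RPM and *Vcam1* at 42.9, 97.1, 72.0 and 66.8 RPM in flat cultures 1 to 4, and *Thy1* was at or near 0. *Ly6a* was at 2000, 13.4, 1260 and 15.3 RPM there and at 92.9 to 309 RPM in reaggregates, and it and *Col3a1*, 2 of 8 stromal markers, were lower in the de Bruijn flat cultures than in the others. Of all genes 3.87% were called lower in the de Bruijn flat cultures. Reaggregates against all flat cultures gave 7.32% of all genes higher and 6.53% lower. Between cultures 6 of 8 stromal markers rose in reaggregates and 1, *Kitl*, fell, while 3 of 7 adipocyte markers, *Cebpa*, *Fabp4* and *Pparg*, 1 of 5 of smooth muscle and pericytes, *Cnn1*, and the 1 tested epithelial marker, *Krt19*, fell and 0 rose. These 5 falls rest on the de Bruijn flat cultures, since against those with no source named alone none of the 5 passed, with log2 differences of −0.64 to −0.34, whereas 5 of the 6 stromal markers still rose and *Kitl* fell. Against the de Bruijn ones alone *Kitl* and *Vcam1* were under the fold threshold, with −0.78 and 0.85. With no filter on low values none of the 5 falls of adipocyte, smooth muscle and epithelial markers passed, and 6 of the 7 stromal calls did. The call lost was that of *Col1a2* (limma adjusted p = 0.0746), whose log2 difference against all flat cultures was 1.83. The 9 adipocyte markers summed to 255 to 691 RPM in reaggregates, with *Lpl* the most abundant, and to 370, 1388, 528 and 1460 RPM in flat cultures 1 to 4, with *Fabp4* the most abundant in the de Bruijn libraries at 435 and 711 RPM.
The defining adipocyte genes *Adipoq* and *Cfd* were under 1 RPM everywhere and *Retn* was listed at 0. Between the flat sources 1.82% of all genes were called higher in the de Bruijn cultures. In contrast, 4 of 7 tested adipocyte markers were called higher there than in the other flat cultures. Of these *Cidec* and *Plin1* were over 0.5 RPM only in the de Bruijn cultures and could enter only as higher, and with no filter *Fabp4* and *Pparg* did not pass (limma adjusted p = 0.0699 and 0.0544). The 6 markers of smooth muscle and pericytes, led by *Acta2*, summed to 69.1 to 454 RPM in reaggregates and 173, 2805, 355 and 2822 RPM in flat cultures 1 to 4. Of these, 3 of 5 tested were called higher in the de Bruijn cultures, none of which passed with no filter, although *Myh11* was at most 0.289 RPM. The adipocyte and smooth muscle sums were thus highest in the de Bruijn flat cultures, which had the least *Agt*, *Enpep* and *Mme*. Among reaggregates both sums were highest in 3 and 4 and lowest in 5 and 6. *Mme* was the reverse, lowest in 3 and 4 and highest in 5 and 6, whereas *Agt* and *Enpep* were highest in 3 and 4. Flat culture 3 exceeded flat culture 1 in both sums and in all 3 genes. The part of other cell types in these levels was not tested. The 5 blood markers summed to at most 0.683 RPM in any library, with *Ptprc*, *Emr1* and *Cd3e* listed at 0 and *Itgam* the most abundant, and the 5 endothelial markers to at most 1.09 RPM, with *Pecam1* the most abundant in 8 libraries. The 5 epithelial markers reached 8.06 and 11.2 RPM in the de Bruijn flat cultures, nearly all from *Krt19*, with *Epcam* and *Krt18* listed at 0, and at most 0.958 RPM elsewhere.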

How the data were processed

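RNA-seq values of 10 OP9 libraries were used as the authors deposited them, in RPM per gene. The authors aligned reads with TopHat 1.2.0 and Bowtie to NCBI37/mm9, summed them per Ensembl gene with GeneProf, split multimapping reads between candidate genes, and scaled each library to the same total. Because only 37.9 to 58.5% of low values were whole reads within 0.05 read, no count test was run. The deposited log2 fold change and adjusted p of the authors' own comparison were not used. Groups came from the sample labels. Genes above 0.5 RPM in at least 1 library were compared on log2(RPM + 0.5) with limma 3.58.1 (R 4.3.3, empirical Bayes with a mean-variance trend), with Benjamini-Hochberg adjustment over all 16933 genes. The fit was also run on simulated independent libraries. These had no structure within groups, such as consecutive pairs, so they do not test calls under such structure. Exon lengths and NCBIM37 coordinates came from GENCODE M1. Python 3.11.15 and matplotlib 3.10.9 were also used. Alternatives covered the pseudocount, the filter, scaling, single libraries, flat source, IL-3 and pairing of libraries.

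The 9 genes and the lists were chosen with earlier results of these data known. Named are the 9 genes, most of the core renin-angiotensin genes in the table, from each other list up to 4 called genes with the largest difference and a group mean of at least 5 RPM, and the 3 nearest profiles of *Agt* and 2 of the 3 nearest of *Mme*. Other names were added after values were seen. Of the 87 related genes, 8 were not analysed here and 2 were matched by a RefSeq synonym.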

Additional observations from a re-analysis of the deposited data

Results flagged for a closer look

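Of 40 sets of values from 22 genes, each set being the reaggregates or the flat cultures, 4 held a library far from the rest. Chance gives about 1 in 20 for measured amounts, a share that does not apply to 3 of these 4, where all other libraries were listed at 0 and any read stands out. *Agtr1a* in flat culture 2, at 0.239 RPM or about 2 reads, lay below the other flat cultures, of which the nearest was at 0.345 RPM. *Ren1* in flat culture 3, at 0.12 RPM, and *Agtr2* in reaggregate 2, at 0.136 RPM, were about 1 read each in groups otherwise listed at 0. *Agtr2* in flat culture 3, at 1.44 RPM or about 12 reads, was above the floor of 3 reads, while the other flat cultures were listed at 0. No cause was tested for any of these values.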

How the results depend on the processing

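*Agt*, *Enpep*, *Mme* and *Anpep* were higher in reaggregates under all 22 settings, with log2 differences of 2.44 to 9.11, 2.87 to 8.32, 2.30 to 5.52 and 1.39 to 3.18, whose ends come from using only 1 kind of flat culture. For each of these genes every reaggregate exceeded every flat culture. Leaving out, averaging or selecting libraries, or changing the pseudocount, therefore could not turn the sign, and only the sizes are informative. *Ece1*, at −0.22 to 0.09, and *Lnpep*, at −0.11 to 0.03, had no steady sign.

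Between IL-3 and no IL-3 there were 0 calls under any setting run. The sign of the small differences turned when single reaggregates were left out, with ranges of −0.22 to 0.044 for *Agt*, −0.16 to 0.18 for *Mme*, −0.25 to 0.11 for *Enpep*, −0.20 to 0.17 for *Anpep*, −0.21 to 0.069 for *Lnpep* and −0.29 to 0.14 for *Ece1*. Median-ratio scaling gave −0.0040 for *Mme*.

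Between cultures, the related genes higher and lower, 12 and 2, became 4 and 2 with consecutive reaggregates averaged, 6 and 4 against flat cultures with no source named, 17 and 5 against the de Bruijn ones, 3 and 2 with only reaggregates with IL-3 and 4 and 2 with only those without it. For all genes, 1239 and 1106 became 321 and 429, 627 and 1044, 2579 and 1775, 277 and 360, and 345 and 474 in the same order. Averaging and selecting leave fewer samples. Leaving out 1 library gave 10 to 17 and 2 to 3 related genes, and 766 to 2121 and 815 to 1522 of all genes.

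Between flat sources, the 3 and 4 related genes became 0 and 1 with no filter on low values, where 92 and 155 of all genes were called, and 5 and 5 under quantile normalization, where 646 and 799 were called. Leaving out 1 flat culture gave 0 to 0, with the lone culture assumed to vary like the others.

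With the library number shared by the groups as a replicate block, 1885 genes were higher and 1154 lower between cultures, and 13 and 2 of the related genes. Deviations of same-numbered libraries had correlations of −0.04, −0.21, 0.07 and 0.155. These deviations also hold the differences between flat sources and between consecutive reaggregates, so they cannot decide whether same-numbered libraries share an origin. The labels state no such pairing, and none was used in the main fit. The cause of the changed counts was not tested. Depth limits *Agtr1a*, *Ace*, *Dpp4* and *Ren1*, at or under about 3 reads in every library.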
